A study of Mus musculus with 30 samples.

Results

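The genes described here are 44 synaptic and axonal adhesion molecules, the cell-surface and secreted proteins through which axons, dendrites and synaptic partners recognise each other. They were chosen by name, and all 44 are among the 54393 genes of the deposited expression table. The deposited splicing table holds 1965 of its 661327 events in 42 of them. Slitrk1 and Lrrc4 have no splicing event there, so only the authors' expression values could be used for them.

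Mouse CGR8 embryonic stem cells (ESC), embryoid bodies made from them (EB8) and neurons after 7 days in culture (DIV7) were sequenced as polyA RNA. Each stage was sampled in 5 lines with 2 replicates, which gave 30 libraries in 15 groups. Puf60_mEx5_HOM is labelled as carrying a homozygous CRISPR-Cas9 deletion of exon 5 of the splicing factor Puf60. Puf60_pEx5_HOM and Puf60_pEx5_HET carry Puf60 with exon 5 made constitutive, on both alleles or on 1. Rbm38KO lacks the RNA-binding protein Rbm38, and WT is the unedited parental line. All edited lines are clonal, and the same parental cells and the same differentiation protocol lie behind all of them. The labels do not tie a library to a clone, so the p-values rest on the spread between libraries of the same group, part of which may be technical. That spread is estimated for each gene or event over all groups fitted together, and not over the 2 groups compared alone. For genes without reads at ESC, the ESC groups add almost no spread to it.

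Synaptic adhesion works through pairs that bridge the cleft. On the axon side stand the neurexins and the receptor phosphatases of the LAR type (Ptprd, Ptprf and Ptprs). Facing them are neuroligins, LRRTMs, SLITRKs, Il1rapl1 and the netrin-G ligands, while secreted cerebellins link neurexins to glutamate delta receptors. Contactins, contactin-associated proteins, the L1 family and NCAMs act mainly along axons, in growth, bundling and the organisation of the axon initial segment and the nodes of Ranvier. Many of these proteins are cut into isoforms by short alternative exons that change which partner they bind.

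Expression was measured as reads over exon-exon junctions, which numbered 23204150 to 38571969 per library, and is given for each library in CPM, reads scaled to a common library size. The splicing measure is PSI, the percentage of transcripts that include an exon. RPKM, reads scaled to gene length and library size, is the authors' single value per group, has no replicate spread, and is used wherever genes are compared with each other. A member is called changed where limma's adjusted p (Benjamini-Hochberg over all 13938 genes tested) was under 0.05 and the fold change of CPM + 1 was at least 2. All 42 members with junction reads passed the filter on low values. Rbm38 had 0 CPM in all 6 Rbm38KO libraries. The alternative 51-nt exon of Puf60 had a PSI of 7.49 to 13.01 in Puf60_mEx5_HOM, 93.2 to 98.97 in Puf60_pEx5_HOM, 49.2 to 64.9 in Puf60_pEx5_HET, 22.9 to 48.4 in Rbm38KO and 20.7 to 43.95 in WT. In Puf60_mEx5_HOM it was below all WT libraries but not at 0, the value that a complete homozygous deletion of this exon would give. The files do not number the exon, so whether it is exon 5 of the labels is not given there, and the source of the remaining inclusion reads was not tested. Junction reads of Puf60 as a whole were also lower in Puf60_mEx5_HOM than in WT. They were 213 to 222 against 328 to 344 CPM at ESC and 230 to 253 against 318 to 335 CPM at EB8. At DIV7 they were 166 to 180 against 243 to 264 CPM. The source of this difference was not tested. The Puf60_mEx5_HOM libraries stood apart in having 0 reads in 5 Y-linked genes, against 2469 to 5364 per library in WT. The 6 neuron markers summed to 269.7 to 291 CPM in WT ESC, 1029 to 1143 CPM in WT EB8 and 3243 to 3790 CPM in WT DIV7, so they were read at ESC too. At WT DIV7 the markers fixed for glutamatergic neurons summed to 453 to 589 CPM, those for GABAergic and glycinergic neurons to 847 to 985 CPM and the 5 for astrocytes to 397 to 539 CPM. These sums are over different genes and are not ranked against each other. In bulk RNA of this kind, fewer cells of a type and less RNA per cell cannot be told apart.

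In the parental line most adhesion genes were under 1 RPKM at ESC, and all were above it at DIV7. By the authors' RPKM, 14 of the 44 reached 1 RPKM in WT ESC, 37 in WT EB8 and 44 in WT DIV7. The median over the 44 was 0.36 RPKM at ESC, 6.27 at EB8 and 24.2 at DIV7. The members already above 10 RPKM in ESC were Ptprf, Ptprs and Cadm1, with 83.09, 37.53 and 23.14 RPKM. At DIV7 the order of the authors' RPKM began with the SynCAMs Cadm4 (239.02) and Cadm3 (202.58), followed by Nrxn2 (197.57), Ptprs (175.29) and Lrrc4b (134.77). It ended with Il1rapl1 at 1.29 RPKM and Cntn3 at 3.26 RPKM. Neighbours in this order cannot be separated, since the value of a group has no error. For the pair without junction reads, the authors' RPKM over WT ESC, EB8 and DIV7 was 0, 5.47 and 23.81 for Slitrk1 and 0.4, 18.11 and 15.61 for Lrrc4.

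**Figure D1:**
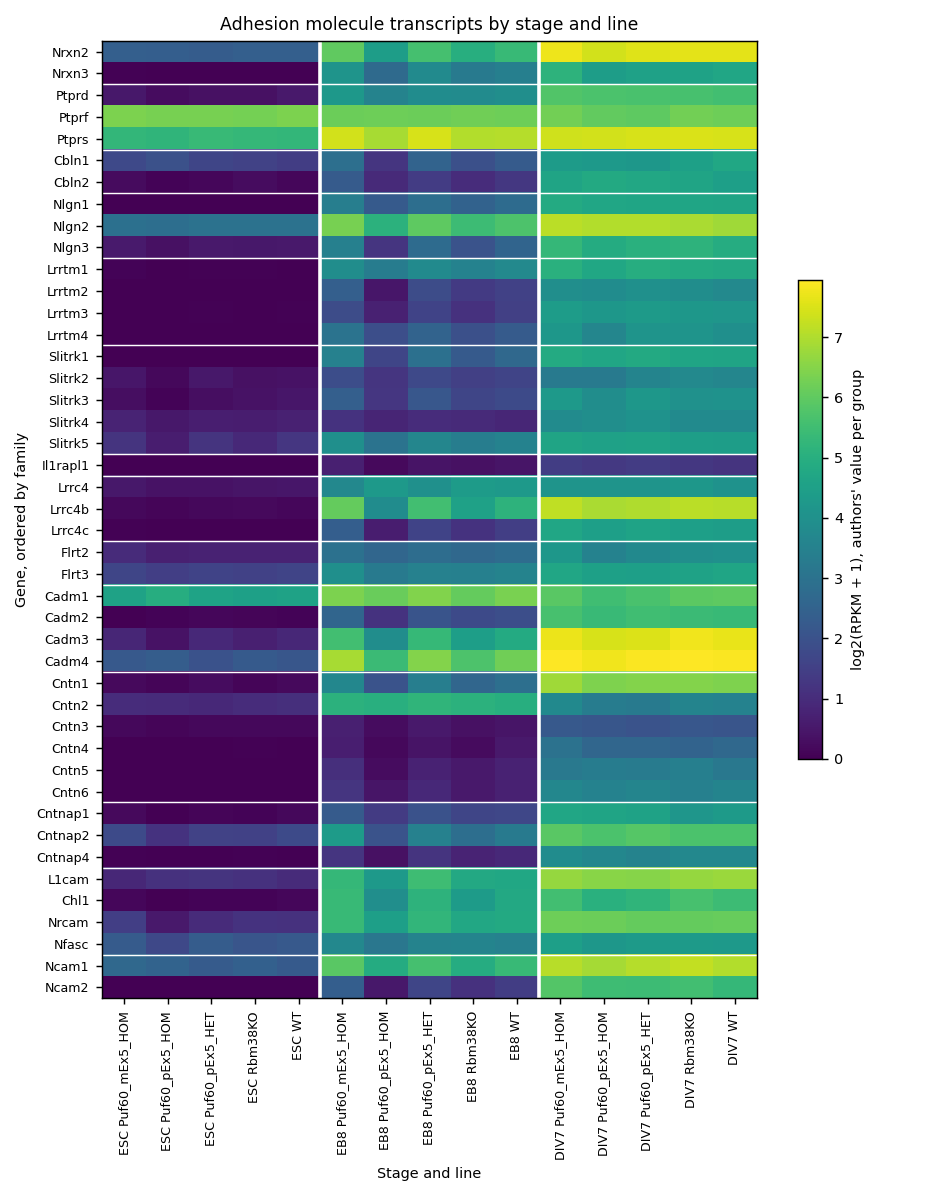
Authors' RPKM of the 44 adhesion genes, as log2(RPKM + 1), with 1 column per stage and line and 1 row per gene, ordered by family (white lines). The median of the 44 in WT was 0.36 RPKM at ESC, 6.27 at EB8 and 24.2 at DIV7. Cntn2 and Cadm1 are lower at DIV7 than at EB8 in all 5 lines, by the RPKM of each group.

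At EB8, 28 of the 42 members tested were higher than at ESC in WT and 0 were lower by the call rule. Over all genes 21.7% were called higher and 18.2% lower. The median log2 fold change was 1.89 over the members and 0.03 over all genes. It was 2.45 over the members when the 9 without a read in either WT ESC library were set at the lower bound that a floor of 3 reads per library gives. Those bounds are taken without the added 1 CPM, and all genes were not treated likewise. The value of 2.45 thus mixes scales and is not set against the median over all genes. Of the 42, 41 had a positive difference. The exception was Ptprf, whose difference of -0.30 passed the adjusted p (0.0185) but not the size.

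On the presynaptic side, Nrxn2 measured 7.63 and 6.99 CPM at ESC, 96.2 and 102 CPM at EB8 and 810.5 and 806 CPM at DIV7 in the WT libraries. Nrxn3 measured 0 and 0 CPM at ESC, 18.9 and 23.7 CPM at EB8 and 55.2 and 64.2 CPM at DIV7, which at EB8 was at least 205-fold above the floor of 3 reads in a WT ESC library. Both neurexins, the presynaptic hubs that bind neuroligins, LRRTMs and cerebellins, were higher at each later stage, and no library of a stage overlapped with the stage before. The phosphatase Ptprd measured 1.56 and 2.05 CPM at ESC, 60.7 and 57.98 CPM at EB8 and 177 and 176 CPM at DIV7, with a log2 fold change at EB8 of 4.43 ± 0.15 (SE), adjusted p = 5.05e-17. Its relative Ptprs measured 234 and 239 CPM at ESC, 791 and 880.4 CPM at EB8 and 1017 and 958 CPM at DIV7 and was called only at EB8, with 1.82 ± 0.09 (SE), adjusted p = 7.27e-14. Ptprf, the LAR protein itself, measured 852 and 835 CPM at ESC, 710.2 and 658 CPM at EB8 and 431 and 387 CPM at DIV7. By the authors' RPKM, Ptprf had 83.09 in WT ESC, 72.75 in WT EB8 and 72.35 in WT DIV7. The lower junction reads at DIV7 thus had no counterpart in the RPKM, and the source of this disagreement was not tested. Of the 3 phosphatases, Ptprd was called higher at both steps, Ptprs at the first, and Ptprf was called at neither. The cerebellin Cbln1 measured 1.42 and 1.38 CPM at ESC, 3.45 and 3.23 CPM at EB8 and 23.3 and 21.4 CPM at DIV7 and Cbln2 0.0678 and 0.106 CPM at ESC, 1.34 and 0.934 CPM at EB8 and 16.3 and 17.7 CPM at DIV7. Both cerebellins passed the call rule only at DIV7, with log2 fold changes of 2.43 for Cbln1 and 3.08 for Cbln2 over EB8. Cbln2 had 2 and 3 reads in the WT ESC libraries and 47 and 33 at EB8. The added 1 CPM holds down its fold change at that step.

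Among the postsynaptic partners, Nlgn2, the neuroligin of inhibitory synapses, measured 14.1 and 16.04 CPM at ESC, 125 and 130.3 CPM at EB8 and 272 and 269.5 CPM at DIV7. Nlgn1, found mainly at excitatory synapses, measured 0 and 0 CPM at ESC, 4.1 and 3.34 CPM at EB8 and 20.5 and 23.3 CPM at DIV7, and Nlgn3, found at both kinds, 1.36 and 0.883 CPM at ESC, 10.2 and 10.8 CPM at EB8 and 57.1 and 61.04 CPM at DIV7. All 3 neuroligins were called higher at both steps, and their libraries separated at each stage. Of the 4 LRRTMs, leucine-rich repeat ligands of neurexins at excitatory synapses, Lrrtm1 and Lrrtm3 were called at EB8 and all 4 at DIV7, with log2 fold changes of 1.02 to 2.82 at the second step. Lrrtm2 and Lrrtm4 had 0 reads in WT ESC. At EB8 they were at least 5.46-fold and 3.55-fold above the floor of 3 reads, rises that the added 1 CPM holds down in the fit. The 4 SLITRKs with junction reads, partners of the LAR phosphatases, had 2 to 66 reads in a WT EB8 library, and their log2 fold changes at EB8 over ESC, 0.00 to 0.96, were short of the fold. Slitrk2 and Slitrk3 passed at DIV7 (1.12 and 1.48). Slitrk5 (1.00) and Slitrk4 (0.81) passed the adjusted p and were under the fold, Slitrk5 by less than the rounding shows. At read numbers this low, the added 1 CPM holds these fold changes down. By the authors' RPKM over WT ESC, EB8 and DIV7, Slitrk4 had 0.65, 0.8 and 12.98 and Slitrk5 1.41, 10.51 and 20.45. Slitrk2 had 0.32, 2.12 and 11.63 and Slitrk3 0.41, 2.41 and 15.67. Il1rapl1, another ligand of Ptprd, measured 0 and 0 CPM at ESC, 0.3702 and 0.594 CPM at EB8 and 1.61 and 2.43 CPM at DIV7. It was the lowest of these genes per length at DIV7, and passed at that step with 1.02. Lrrc4b, the netrin-G ligand family member that binds LAR phosphatases, measured 0.0678 and 0 CPM at ESC, 25.97 and 29.1 CPM at EB8 and 116 and 128 CPM at DIV7. Its WT EB8 libraries held 1942 reads and its WT ESC libraries 2, a ratio of 797 with an exact 95% counting interval of 220.2 to 6583. Lrrc4c measured 0 and 0 CPM at ESC, 0.683 and 0.453 CPM at EB8 and 10.6 and 11.6 CPM at DIV7 and was called at DIV7 with 2.95. At EB8 Lrrc4c and Il1rapl1 were at least 5.47-fold and 4.64-fold above the floor of 3 reads in a WT ESC library. The added 1 CPM holds both fold changes down at that step.

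Among the axonal families, Chl1, an L1-family protein of growing axons, had the largest call at EB8 on the scale of CPM + 1. It measured 0.271 and 0.318 CPM at ESC, 101 and 125 CPM at EB8 and 199 and 221 CPM at DIV7, a log2 fold change at EB8 of 6.45 ± 0.14 (SE), adjusted p = 6.96e-20. At DIV7 it was 0.89 above EB8, short of the fold. The added 1 CPM holds down members with fewer ESC reads, such as Lrrc4b, so these cannot be ranked against Chl1. L1cam measured 5.56 and 5.12 CPM at ESC, 124 and 141 CPM at EB8 and 561 and 604 CPM at DIV7 and Nrcam 5.93 and 6.08 CPM at ESC, 94.5 and 105 CPM at EB8 and 233 and 264 CPM at DIV7. Nfasc, which organises the axon initial segment and nodes, measured 13.9 and 21.9 CPM at ESC, 48.6 and 57.3 CPM at EB8 and 92.4 and 108 CPM at DIV7. All 4 L1-family genes were called at EB8, and L1cam and Nrcam again at DIV7.

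Cntn2, the contactin of early projecting axons, was the 1 member called lower at DIV7. It measured 6.204 and 6.18 CPM at ESC, 165 and 198 CPM at EB8 and 57.5 and 64.8 CPM at DIV7, a log2 fold change of 4.66 ± 0.15 (SE), adjusted p = 2.04e-17 at EB8 and of -1.55 ± 0.15 (SE), adjusted p = 4.63e-09 at DIV7. Its EB8 libraries lay above both other stages without overlap. The other 5 contactins all measured highest at DIV7: Cntn1 had 0.509 and 0.459 CPM at ESC, 26.97 and 32.97 CPM at EB8 and 375 and 473 CPM at DIV7, and Cntn6 had 0 and 0.0353 CPM at ESC, 2.33 and 2.21 CPM at EB8 and 40.6 and 50.7 CPM at DIV7. Log2 fold changes at DIV7 over EB8 ran over these 5 from 2.57 (Cntn3) to 3.83 (Cntn6). The contactin-associated proteins, which pair with contactins beside the nodes, followed the same course, and Cntnap2 had 2.34 and 1.695 CPM at ESC, 9.97 and 10.4 CPM at EB8 and 129.8 and 169 CPM at DIV7. Cntnap4 had 0.102 and 0 CPM at ESC, 4.21 and 5.26 CPM at EB8 and 61.6 and 77.6 CPM at DIV7. Cntnap1, Cntnap2 and Cntnap4 were called at both steps, at DIV7 with 3.16, 3.74 and 3.62.

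The largest call of the second step was Ncam2, an immunoglobulin-family relative of Ncam1. It measured 0 and 0 CPM at ESC, 3.79 and 4.896 CPM at EB8 and 89.5 and 120.1 CPM at DIV7, a log2 fold change at DIV7 of 4.30 ± 0.15 (SE), adjusted p = 6.37e-16. Ncam1 measured 14.3 and 17.9 CPM at ESC, 162 and 180.1 CPM at EB8 and 528 and 571 CPM at DIV7. The SynCAM Cadm2 measured 0.0339 and 0.0353 CPM at ESC, 3.73 and 6.34 CPM at EB8 and 78.5 and 92.2 CPM at DIV7, a log2 fold change at DIV7 of 3.87 ± 0.17 (SE), adjusted p = 1.41e-14. Cadm3 had 1.46 and 2.33 CPM at ESC, 48.4 and 55.1 CPM at EB8 and 339.8 and 421 CPM at DIV7 and Cadm4 9.87 and 9.501 CPM at ESC, 225 and 262 CPM at EB8 and 792 and 799 CPM at DIV7. Cadm1 was the exception among the SynCAMs: it measured 41.3 and 43.7 CPM at ESC, 155 and 159 CPM at EB8 and 134 and 148 CPM at DIV7, was called at EB8 (1.86) and was -0.15 at DIV7, where the adjusted p was 0.111. Of the FLRTs, which bind latrophilins and Unc5 receptors, Flrt3 was called at both steps (1.59 and 1.21). Flrt2 was called at neither (0.22 and 0.95), with few junction reads, so that the added 1 CPM holds its fold changes down. By the authors' RPKM, Flrt2 had 0.69 in WT ESC, 5.99 in WT EB8 and 14.95 in WT DIV7.

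At DIV7 against EB8, 33 of the 42 members were called higher and 1 lower, where 17.6% of all genes were called higher and 12.7% lower. The median was 1.97 over the members and 0.02 over all genes. Other genes of the pathway, listed by role, were also counted. At DIV7 against EB8, of 24 postsynaptic scaffold genes 14 were called higher and 2 lower, of 12 axonal anchors 7 higher and 0 lower, and of 30 other trans-synaptic organisers 22 higher and 0 lower. At EB8 against ESC the counts were 15 higher and 1 lower for the scaffolds, 7 and 1 for the anchors and 12 and 2 for the organisers. Of 14 splicing regulators known to act on exons of adhesion genes, 10 were called higher and 1 lower at EB8, and 4 higher and 1 lower at DIV7. The 6 neuron markers were all called higher at DIV7 as well, with the summed levels given above. The part of neuron number in the members' difference was not tested.

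In the edited lines the called members were all at EB8, in the lines homozygous for a changed Puf60 exon. In Puf60_mEx5_HOM at EB8, 40 of 42 members measured above WT, with a median log2 fold change of 0.58 against 0.02 over all genes. By the call rule 3 were higher and 0 lower, where 1.18% of all genes were called higher and 0.466% lower. The count of 3 was 8 with a pseudocount of 0.25 CPM and 10 with limma voom. By the adjusted p alone, at any size, 28 were higher, where 11.8% of all genes were. In Puf60_pEx5_HOM at EB8, 39 of 42 measured below WT, with a median of -0.40 against 0.00 over all genes. There 8 were called lower and 0 higher (background 1.44% lower and 0.215% higher), and 20 were lower by the adjusted p alone (background 7.57%). These comparisons share the 2 WT EB8 libraries.

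Ncam2 had 11.5 and 11.3 CPM in Puf60_mEx5_HOM, 1.03 and 1.08 in Puf60_pEx5_HOM, 5.15 and 7.09 in Puf60_pEx5_HET and 3.27 and 3 in Rbm38KO, against 3.79 and 4.896 CPM in WT. The libraries of Puf60_mEx5_HOM were the highest and those of Puf60_pEx5_HOM the lowest, with no overlap with WT. The log2 fold change over WT was 1.22 ± 0.15 (SE), adjusted p = 2.48e-05 in Puf60_mEx5_HOM and -1.37 ± 0.15 (SE), adjusted p = 3.94e-06 in Puf60_pEx5_HOM. Lrrc4b had 55.8 and 57.5 CPM in Puf60_mEx5_HOM, 10.7 and 8.84 in Puf60_pEx5_HOM, 34.3 and 36.6 in Puf60_pEx5_HET and 22.1 and 18.1 in Rbm38KO, against 25.97 and 29.1 CPM in WT. The same order held, with 1.02 ± 0.13 (SE), adjusted p = 2.10e-05 in Puf60_mEx5_HOM and -1.41 ± 0.13 (SE), adjusted p = 2.34e-07 in Puf60_pEx5_HOM. Cntnap2 had 21.97 and 24.1 CPM in Puf60_mEx5_HOM, 3.83 and 3.45 in Puf60_pEx5_HOM, 13.5 and 13.2 in Puf60_pEx5_HET and 8.34 and 6.77 in Rbm38KO, against 9.97 and 10.4 CPM in WT. Its log2 fold change was 1.10 in Puf60_mEx5_HOM and -1.27 in Puf60_pEx5_HOM, and Puf60_pEx5_HET lay above WT and Rbm38KO below it in every library of these 3 genes.

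Nlgn3 had 19.7 and 22.6 CPM in Puf60_mEx5_HOM, 3.65 and 3.06 in Puf60_pEx5_HOM, 15.6 and 12.3 in Puf60_pEx5_HET and 7.002 and 6.03 in Rbm38KO, against 10.2 and 10.8 CPM in WT. It was called in Puf60_pEx5_HOM, with -1.40 ± 0.15 (SE), adjusted p = 2.37e-06, and measured 0.94 in Puf60_mEx5_HOM, short of the fold. The other calls in Puf60_pEx5_HOM were Cbln1 (-1.24), Cntnap4 (-1.12), Cntn5 (-1.06) and Nrxn2 (-1.03), log2 fold changes whose adjusted p ran from 6.40e-06 to 9.04e-05. Cbln1 had 0.814 and 0.855 CPM in Puf60_pEx5_HOM, against 3.45 and 3.23 CPM in WT. The called members thus came from the neurexins, neuroligins, cerebellins, netrin-G ligands, contactins, contactin-associated proteins and NCAMs. In the 3 LAR phosphatases the differences in Puf60_pEx5_HOM were -0.14 to 0.13, and Cntn2 measured 174 and 216 CPM in Puf60_mEx5_HOM and 179.7 and 191 in Puf60_pEx5_HOM, against 165 and 198 CPM in WT. Cntn2 overlapped WT in both lines.

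**Figure D2:**
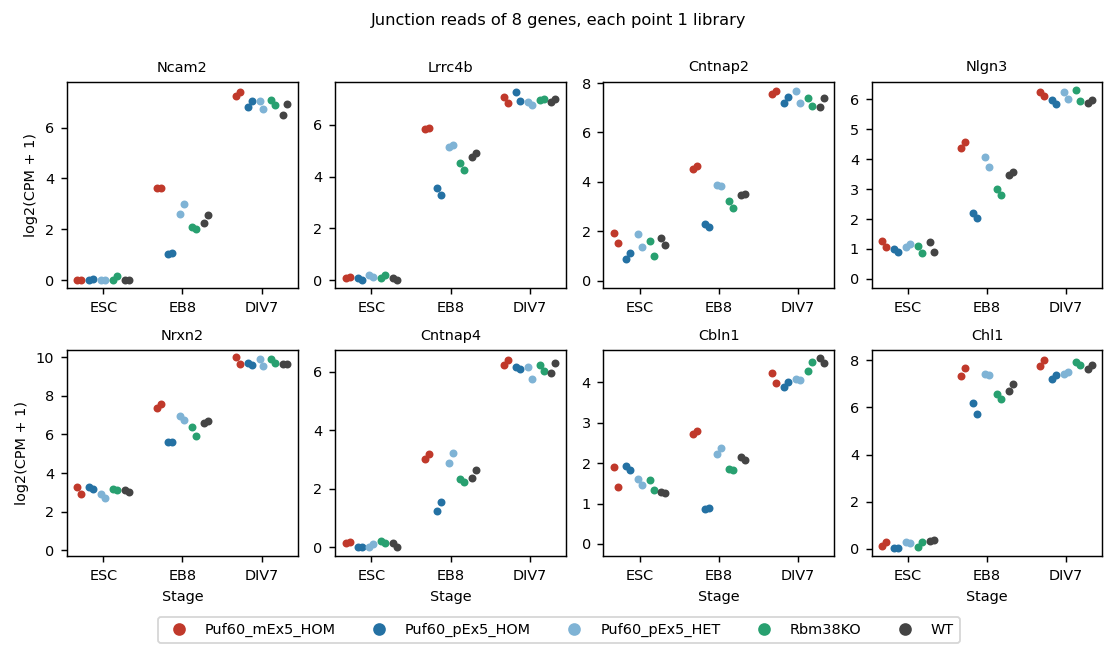
Junction reads of 8 members as log2(CPM + 1), each point 1 library, by stage and line. At EB8 the Puf60_mEx5_HOM libraries of Ncam2 (11.3 and 11.5 CPM) and the Puf60_pEx5_HOM libraries (1.03 and 1.08 CPM) lie on opposite sides of WT (3.79 and 4.90 CPM).

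In the authors' deposited table, which has its own test, 28 members were higher and 1 lower in Puf60_mEx5_HOM at EB8 and 23 were lower in Puf60_pEx5_HOM, at a false discovery rate under 0.05. The lower one was Lrrc4, with 12.12 RPKM in Puf60_mEx5_HOM, against 18.11 RPKM in WT in the authors' deposited table. By the authors' RPKM, 41 members reached 1 RPKM at EB8 in some line, and Puf60_mEx5_HOM was the highest of the 5 lines in 35 of them and Puf60_pEx5_HOM the lowest in 37. At the other stages the authors' deposited table gave 1 member higher and 8 lower in Puf60_pEx5_HOM at ESC. It gave 2 lower in that line at DIV7, and 0 in the other lines. The shares of all genes at that false discovery rate and in that order of lines were not counted. These counts therefore do not set the members apart from other genes.

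Neuron markers also differed between the lines. The summed level of the 6 at EB8 was 1573 to 1795 CPM in Puf60_mEx5_HOM, 1369 to 1459 in Puf60_pEx5_HET, 709 to 986 in Rbm38KO and 662 to 788 in Puf60_pEx5_HOM, against 1029 to 1143 CPM in WT. Of these 6 markers, 1 was called higher in Puf60_mEx5_HOM and 1 lower in Puf60_pEx5_HOM, and the medians were 0.76 and -0.73. The 5 markers of GABAergic and glycinergic neurons summed to 257 to 262 CPM in Puf60_mEx5_HOM and 40.8 to 58.1 in Puf60_pEx5_HOM, against 101 to 126 CPM in WT, with 2 called higher and 2 called lower in those lines. Glutamatergic markers summed to 81.4 to 86.3 CPM in Puf60_mEx5_HOM and 24.95 to 28.6 in Puf60_pEx5_HOM, against 39.1 to 47.8 CPM in WT, with 2 of 5 called higher and 1 of 5 called lower in those lines. The glutamatergic list was split. By log2 fold change in Puf60_mEx5_HOM, Grin1 (1.24), Gria2 (1.04) and Slc17a6 (0.66) were above WT, and Slc17a7 (-0.14) and Slc17a8 (-0.41) below. In Puf60_pEx5_HOM Slc17a7 was above WT (0.07) and the other markers of that list were below. Markers of mesenchymal cells, which are not neurons, summed to 336 to 741 CPM in Puf60_mEx5_HOM and 67.4 to 78.7 in Puf60_pEx5_HOM, against 142 to 284 CPM in WT, with 0 of 5 called in Puf60_mEx5_HOM and 1 of 5 called lower in Puf60_pEx5_HOM. The part of these markers in the members' differences was not tested. Of the postsynaptic scaffold genes 3 of 24 were called higher in Puf60_mEx5_HOM and 5 of 24 lower in Puf60_pEx5_HOM. Of the axonal anchors and of the other organisers 0 were called higher in Puf60_mEx5_HOM and 1 each lower in Puf60_pEx5_HOM. Of the 14 splicing regulators, 1 was called higher in Puf60_mEx5_HOM and 2 lower in Puf60_pEx5_HOM. The counts in the edited lines rested on single libraries in part: without WT replicate B at EB8 they were 6 higher in Puf60_mEx5_HOM and 5 lower in Puf60_pEx5_HOM.

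Puf60_pEx5_HET and Rbm38KO had 0 called members at EB8 with limma, and 0 with limma voom, where 0.115% and 0.043% of all genes were called in either direction. At an unadjusted p under 0.05 there were 17 of 42 in Puf60_pEx5_HET and 11 of 42 in Rbm38KO, and the medians were 0.25 and -0.17. The share of all genes or events at an unadjusted p was not counted, here or for any such count below. Those counts therefore have no background and are not read as differences of the members. At ESC, 0 members were called in any edited line. Over all genes 0.0789% were called there in Puf60_mEx5_HOM, 2.47% in Puf60_pEx5_HOM, 0.0359% in Puf60_pEx5_HET and 0.0359% in Rbm38KO. The counts at an unadjusted p under 0.05 were 3 in Puf60_mEx5_HOM, 11 in Puf60_pEx5_HOM, 0 in Puf60_pEx5_HET and 1 in Rbm38KO, and limma voom called 1, in Puf60_pEx5_HOM. Without replicate A of Puf60_pEx5_HOM at ESC, limma called 1 there as well.

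At DIV7 no member was called in any edited line with limma or limma voom. Over all genes 0.395% were called in Puf60_mEx5_HOM, 2.57% in Puf60_pEx5_HOM, 0.574% in Puf60_pEx5_HET and 0.301% in Rbm38KO. The counts at an unadjusted p under 0.05, without a background, were 10, 8, 4 and 1 of 42 for Puf60_mEx5_HOM, Puf60_pEx5_HOM, Puf60_pEx5_HET and Rbm38KO. Ncam2 had 152 and 168 CPM in Puf60_mEx5_HOM and 109.6 and 132 in Puf60_pEx5_HOM, against 89.5 and 120.1 CPM in WT. Puf60_mEx5_HOM lay above WT, and Puf60_pEx5_HOM overlapped it. Nlgn3 had 73.7 and 67.8 CPM in Puf60_mEx5_HOM and 61.2 and 56.7 in Puf60_pEx5_HOM, against 57.1 and 61.04 CPM in WT. By the adjusted p alone, Ncam2 passed in Puf60_mEx5_HOM (0.62), as did 1.38% of all genes. In Puf60_pEx5_HOM 6 passed it, against 15.8% of all genes, Slitrk4 higher (0.41) and Cbln1, Lrrtm4, Flrt2, Cadm1 and Chl1 lower (-0.59 to -0.41). Astrocyte markers summed to 86.2 to 204 CPM in the same Puf60_pEx5_HOM libraries, against 397 to 539 CPM in WT DIV7, and 5 markers of pluripotent cells to 159.7 to 224 CPM, against 46.9 to 55.9 CPM in WT. Oligodendrocyte-lineage markers summed to 20.3 to 52.3 CPM in Puf60_pEx5_HOM, against 84.8 to 106 CPM in WT. Mesenchymal markers summed to 1439 to 4307 CPM in Puf60_mEx5_HOM and 277 to 448 in Puf60_pEx5_HOM, against 630.2 to 2089.6 CPM in WT. The part of any of these in the members' differences was not tested.

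**Figure D3:**
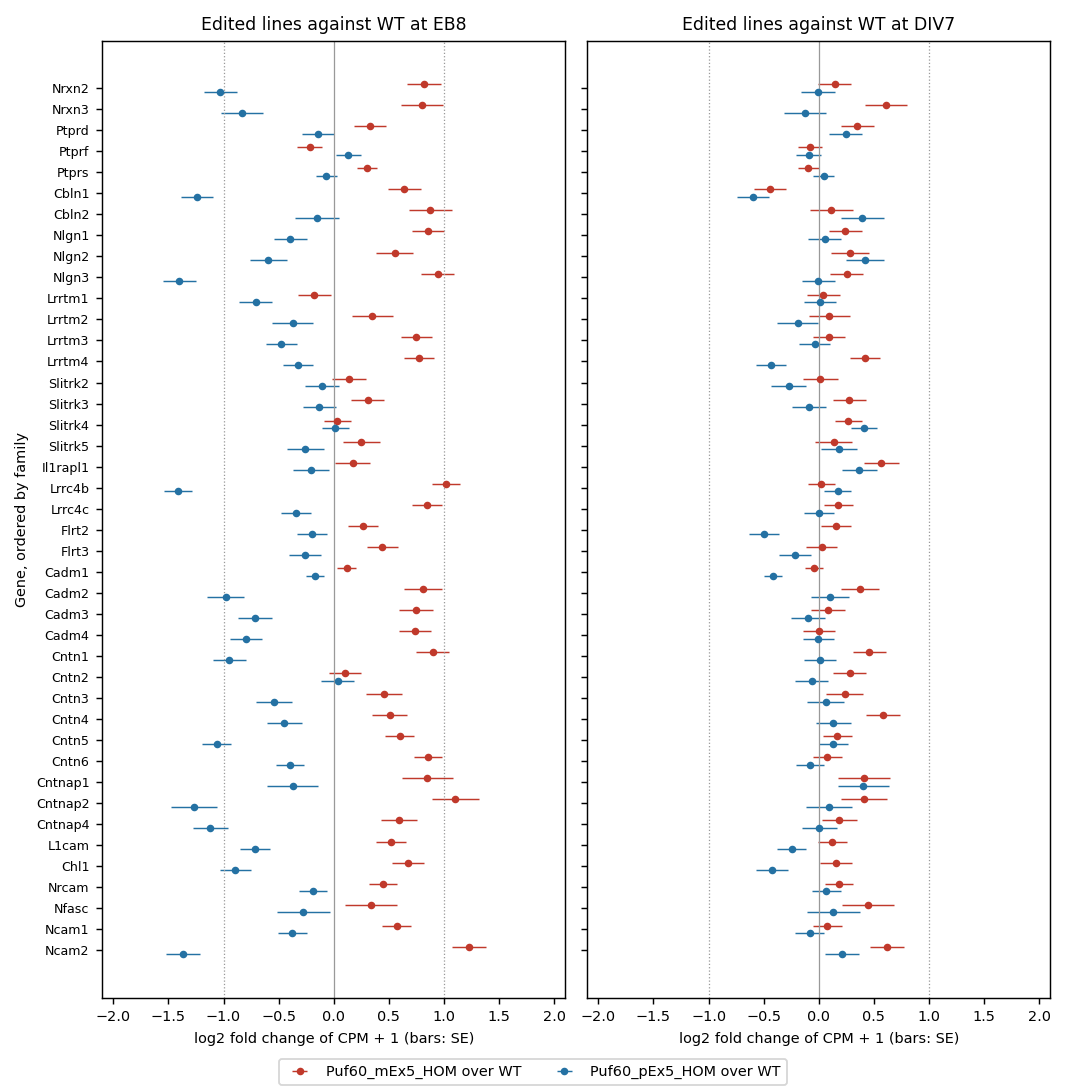
Log2 fold change of CPM + 1 over WT for the 42 members with junction reads, at EB8 (left) and DIV7 (right), with bars of 1 SE from limma and dotted lines at 2-fold. At EB8 40 members lie above 0 in Puf60_mEx5_HOM and 39 below 0 in Puf60_pEx5_HOM, and at DIV7 0 members pass the dotted lines.

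The change between stages was itself tested by comparing the step DIV7 minus EB8 in a line with the same step in WT. In Puf60_pEx5_HOM the step was larger than in WT for 13 of 42 members by the adjusted p, where 7.65% of all genes were called larger. In Puf60_mEx5_HOM it was smaller for 3 (background 1.6%). These steps hold the same EB8 libraries as the EB8 comparison above, so they do not add separate support to it. The 8 members called lower in Puf60_pEx5_HOM at EB8 are all among the 13, and no member was called at DIV7. The counts were 0 in Puf60_pEx5_HET and 0 in Rbm38KO with limma and with limma voom (backgrounds 0.043% and 0.043%). At an unadjusted p under 0.05 they were 10 and 9, without a background at that threshold. Without DIV7 WT replicate A the count of 13 was 8, and without DIV7 replicate A of Puf60_pEx5_HET the count there was 3. For Lrrc4b, 10.7 and 8.84 CPM at EB8 and 154 and 122 CPM at DIV7 in Puf60_pEx5_HOM stood against 25.97 and 29.1 CPM and 116 and 128 CPM in WT. Its step was larger by 1.58 ± 0.18 (SE), adjusted p = 1.81e-05 on the log2 scale.

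Splicing of the members also differed between the stages. Events entered a test where every library of the fit had at least 10 reads, and were called at an adjusted p under 0.05 (limma on the log2 ratio of inclusion to exclusion reads) and a difference of at least 10 PSI points. At EB8 against ESC in WT, 19 of 47 member events in 7 genes were called, where 13.4% of all events were. The 19 lie at 18 sites, since both entries of 1 alternative 3' splice choice in Ncam1 are counted. At DIV7 against EB8 in WT, 51 of 121 member events in 14 of 24 genes were called, where 16.5% of all events were. Ptprd had 9 of these events, Nrcam and Ptprs 6 each, and Nfasc and Ptprf 5 each. Neighbouring exons of a gene share reads and often belong to 1 choice of isoform, so events are not independent.

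Microexons, here exons of at most 27 nt, many of which are known to be included in neurons, were called at DIV7 in 13 of 21 cases (11 higher, 2 lower). That share was close to the one over all genes, in which 62.9% of microexons were called. Longer exons were called in 31 of 48 cases (16 higher, 15 lower), where 29.3% of longer exons of all genes were. At EB8 against ESC, 4 of 6 microexons and 9 of 19 longer exons were called, against 62.5% and 23.4% over all genes. In length, 12 of the 13 called microexons and 22 of the 31 called longer exons were multiples of 3, which leave the reading frame intact. These shares, 92.3% and 71%, were close to those of all the members' exons tested, 95.2% of microexons and 70.8% of longer exons. In all genes they were 86.7% of called microexons and 57.1% of called longer exons.

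Microexons of the LAR phosphatases are shown by sequence because the paralogs hold related exons that were included to different degrees. Capitals mark the exon and lower case the 15 bases on either side of it in the annotated transcript, 5′ to 3′, from GENCODE M21 on mm10.
Ptprd, 27 nt, chr4:76095520-76095546, minus strand: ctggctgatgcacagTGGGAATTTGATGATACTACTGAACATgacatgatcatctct
Ptprs, 27 nt, chr17:56427791-56427817, minus strand: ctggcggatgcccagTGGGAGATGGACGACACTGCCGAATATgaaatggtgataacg
Ptprf, 27 nt, chr4:118227819-118227845, minus strand: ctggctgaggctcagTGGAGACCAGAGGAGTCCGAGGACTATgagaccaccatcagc
Ptprd, 12 nt, chr4:76135545-76135556, minus strand: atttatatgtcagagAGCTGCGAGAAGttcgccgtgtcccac
Ptprd, 12 nt, chr4:76054589-76054600, minus strand: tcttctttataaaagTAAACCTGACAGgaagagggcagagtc
Ptprs, 12 nt, chr17:56421833-56421844, minus strand: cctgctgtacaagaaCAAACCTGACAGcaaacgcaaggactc
Ptprd, 9 nt, chr4:76139294-76139302, minus strand: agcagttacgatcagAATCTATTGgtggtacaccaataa
Ptprf, 18 nt, chr4:118252076-118252093, minus strand: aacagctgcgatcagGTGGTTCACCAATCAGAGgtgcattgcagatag
All 8 are annotated as coding exons. Of the 27 bases, 19 were identical between Ptprd and Ptprs, 14 between Ptprf and Ptprs and 13 between Ptprf and Ptprd.

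The 27-nt exon of Ptprd had a WT PSI of 88.4 and 89.2 at DIV7, against 25.3 and 38.4 at EB8 (56.9 points, adjusted p = 1.14e-07). That of Ptprf had 7 and 8.86 at ESC, 15.7 and 17.7 at EB8 and 53.3 and 69.05 at DIV7 (44.4 points, adjusted p = 1.79e-09 at DIV7). That of Ptprs had 2.37 and 1.15 at ESC, 17.1 and 17.8 at EB8 and 19.8 and 15.1 at DIV7. The 3 exons differed in course: in Ptprs the call was at EB8 (15.7 points, adjusted p = 1.05e-05), and its DIV7 libraries overlapped the EB8 ones, while in Ptprd and Ptprf the DIV7 libraries lay far above.

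The first 12-nt exon of Ptprd listed is the mini-exon known as meB, between immunoglobulin domains, which sets which postsynaptic partner is bound. Its PSI was 92.8 and 97.5 at DIV7, against 28.2 and 42.8 at EB8 (59.6 points, adjusted p = 4.09e-06). A 12-nt exon of Ptprs, for which no annotated exon has both ends, had 0 and 0.41 at ESC, 2.38 and 2.6 at EB8 and 33.6 and 33.02 at DIV7 (30.8 points, adjusted p = 2.20e-12 at DIV7). The libraries of the stages did not overlap for either. The other 12-nt exons, in Ptprd and Ptprs, share 11 of 12 bases and were used differently. In Ptprs that exon had 95.4 and 95.3 at ESC, 94.7 and 94.95 at EB8 and 94.4 and 96.1 at DIV7, nearly always included. In Ptprd it had 65.8 and 86 at DIV7, against 35.02 and 59.9 at EB8 (28.4 points, adjusted p = 0.0392). Those libraries did not overlap, but spread over more than 20 points within a stage. The 9-nt exon of Ptprd had 32.9 and 23.8 at DIV7, against 4.77 and 4.81 at EB8, and the 18-nt exon of Ptprf 1.93 and 2.07 at ESC, 5.38 and 6.17 at EB8 and 43.5 and 57.7 at DIV7.

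**Figure D4:**
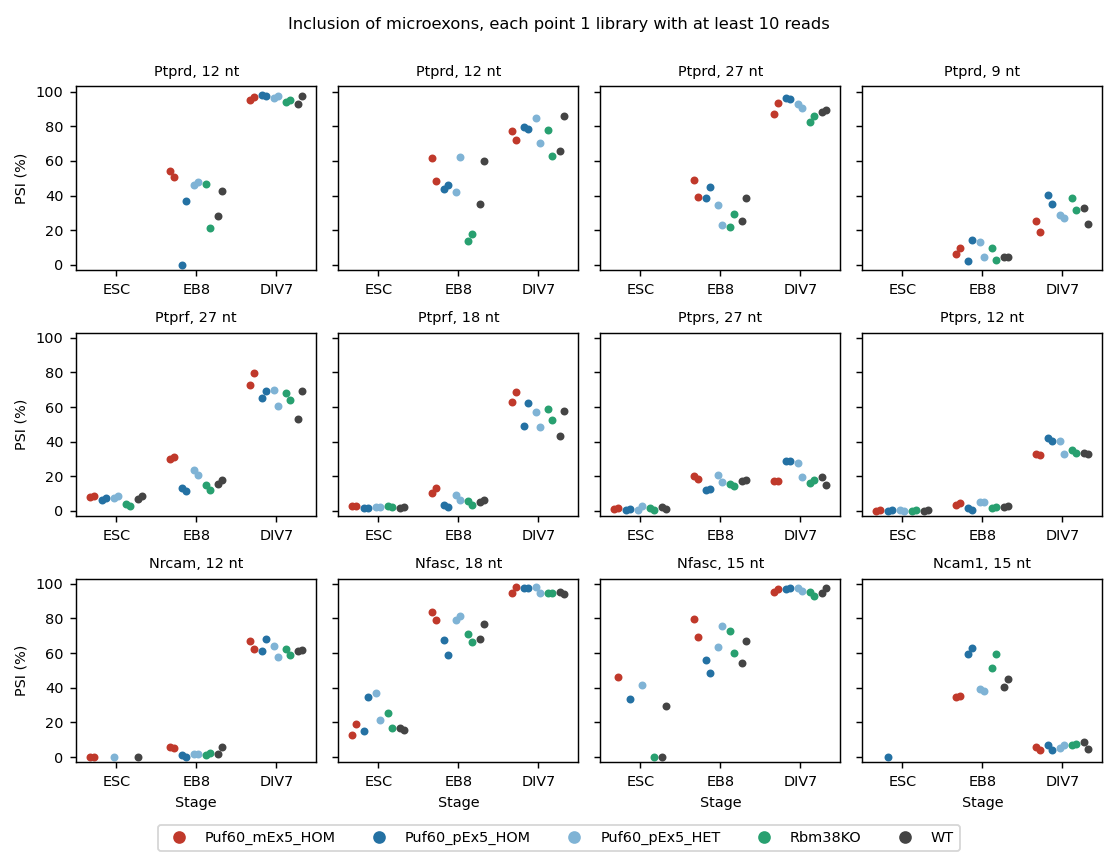
PSI of 12 microexons by stage and line, each point 1 library with at least 10 reads for the exon. The 27-nt exon of Ptprd reaches 88.4 and 89.2 in WT at DIV7 while that of Ptprs stays at 15.1 and 19.8, and the 15-nt exon of Ncam1 is lower at DIV7 than at EB8 in all 5 lines.

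Of 11 longer exons of the same phosphatases called at DIV7 against EB8, 9 were lower and 2 higher. Ptprf exons of 306 nt and 579 nt had 94.6 and 95.2 at ESC, 89.05 and 85.3 at EB8 and 36.9 and 26.6 at DIV7, and 99.2 and 98.9 at ESC, 88.7 and 88.6 at EB8 and 43.7 and 33.7 at DIV7. The differences at DIV7 were -55.4 and -49.95 points, with no overlap. In Ptprd, the 184-nt exon had 13.5 and 8.66 at DIV7, against 71.6 and 55.2 at EB8 (-52.3 points, adjusted p = 1.32e-07), and its neighbours of 194, 118 and 582 nt differed by -35.6, -30.2 and -30.7 points. In Ptprs, the 306-nt exon had 39.9 and 38.8 at ESC, 66.9 and 64.1 at EB8 and 39.8 and 26.4 at DIV7. The 600-nt exon had 32.2 and 29.9 at ESC, 59.8 and 59.2 at EB8 and 39.5 and 18.3 at DIV7. Both were higher at EB8 than at ESC (26.2 and 28.4 points) and lower at DIV7 than at EB8 (-32.4 and -30.6 points). The 2 higher ones were a 120-nt exon of Ptprd, with 31.6 and 25 at DIV7, against 0.56 and 3.23 at EB8 (26.4 points, adjusted p = 2.47e-05), and a 33-nt exon of Ptprf, with 4.77 and 5.65 at ESC, 8 and 9.6 at EB8 and 64.6 and 76.2 at DIV7 (61.6 points, adjusted p = 4.71e-11 at DIV7).

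In Nrxn2, a 17-nt exon, whose length is no multiple of 3 and which has no annotated exon with both ends, had 0 and 9.68 at ESC, 35.9 and 48.05 at EB8 and 69.3 and 66.7 at DIV7, called at both steps. A 72-nt exon had 85.4 and 86.9 at EB8, against 64.02 and 46.1 at ESC (31.1 points, adjusted p = 0.00274).

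The neuroligins hold related 60-nt exons at splice site A, which lie in the extracellular domain. Capitals mark the exon as before.
Nlgn1, 60 nt, chr3:25920178-25920237, minus strand: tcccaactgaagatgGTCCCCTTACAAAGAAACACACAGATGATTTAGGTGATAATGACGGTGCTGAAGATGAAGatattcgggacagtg
Nlgn3, 60 nt, chrX:101307075-101307134, plus strand: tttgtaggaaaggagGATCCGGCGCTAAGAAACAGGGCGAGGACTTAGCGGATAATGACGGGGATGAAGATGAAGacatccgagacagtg
The exons share 43 of 60 bases. In Nlgn1 the PSI was 35.6 and 30.1 at DIV7, against 3.33 and 13.9 at EB8 (24.2 points, adjusted p = 0.015). In Nlgn3 it was 69.4 and 66.5 at DIV7 and 67.1 and 68.2 at EB8, with an adjusted p of 0.946, so the Nlgn3 exon had the higher PSI of the pair at both stages.

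In Ncam1, the 801-nt exon that is specific to the form with the longest cytoplasmic tail had 2.08 and 7.37 at ESC, 49.5 and 48.2 at EB8 and 88.98 and 90.5 at DIV7, with 44.1 points, adjusted p = 3.76e-05 at EB8 and 40.9 points, adjusted p = 3.16e-12 at DIV7. The stages did not overlap. Shorter exons between the fibronectin repeats went the other way: the 15-nt exon had 8.4 and 4.85 at DIV7, against 40.2 and 45.3 at EB8, and the 3-nt exon 93.5 and 100.0 at ESC, 54.6 and 53.5 at EB8 and 12.4 and 11.9 at DIV7.
Ncam1, 15 nt, chr9:49541888-49541902, minus strand: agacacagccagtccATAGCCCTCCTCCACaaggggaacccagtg
Ncam1, 30 nt, chr9:49550540-49550569, minus strand: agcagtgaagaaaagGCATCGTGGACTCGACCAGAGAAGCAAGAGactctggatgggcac
The 30-nt exon shown is the one known as VASE, inserted into an immunoglobulin domain. It had a WT PSI of 9.1 and 5.27 at ESC, 18.98 and 22.1 at EB8 and 26.4 and 29.5 at DIV7.

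In the L1 family, related microexons are shown because they were included at different stages. L1cam has a 12-nt cytoplasmic exon that is known to add a sorting signal for endocytosis in neurons, and Nrcam has a 12-nt exon of related sequence.
L1cam, 12 nt, chrX:73855652-73855663, minus strand: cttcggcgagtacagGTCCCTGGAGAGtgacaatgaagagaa
Nrcam, 12 nt, chr12:44597782-44597793, plus strand: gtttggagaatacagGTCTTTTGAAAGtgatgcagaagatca
The exons have 8 of 12 bases in common. In L1cam the PSI was 97.3 and 96.7 at EB8 and 99.4 and 99.4 at DIV7, so inclusion was near complete by EB8. The ESC values were 0 and 0, from 10 and 12 reads. In Nrcam the PSI was 61.2 and 61.6 at DIV7, against 1.97 and 5.76 at EB8 (57.5 points, adjusted p = 1.68e-10). The 18-nt exon of Nfasc had 16.6 and 15.5 at ESC, 68.3 and 76.9 at EB8 and 95.4 and 93.96 at DIV7, called at both steps, and the 116-nt exon 6.82 and 8.82 at EB8, against 35.7 and 42.4 at ESC (-31.2 points, adjusted p = 1.13e-05). Nfasc exons of 237, 101 and 153 nt had 83.01 and 84.4, 58.1 and 68.5, and 57.2 and 69 at DIV7, against 21.8 and 9.73, 10.5 and 6.65, and 10.8 and 8.6 at EB8. All 3 were higher at DIV7 without overlap.

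In Cadm1, 3 alternative exons of the extracellular stem near the membrane differed between stages, in opposite directions. The 84-nt exon had 98.7 and 100.0 at ESC, 53.6 and 42.7 at EB8 and 10.1 and 10.2 at DIV7. The 33-nt exon had 93.5 and 88.7 at EB8, against 25.3 and 26.1 at ESC (65.3 points, adjusted p = 1.08e-07), and the 54-nt exon had 51.1 and 54.8 at DIV7, against 6.6 and 6.4 at EB8 (46.4 points, adjusted p = 9.45e-12). At the second step 2 of its 3 tested events were called, while its junction reads did not pass the test there.

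The steps of the parental line recurred in the edited lines. Of the 51 events called at DIV7 against EB8 in WT, the libraries of the 2 stages stood apart in the same direction for 51 in Puf60_mEx5_HOM, 51 in Puf60_pEx5_HOM, 51 in Puf60_pEx5_HET and 50 in Rbm38KO. For the 19 events called at EB8 against ESC in WT the counts were 19, 16, 17 and 16. The share over the events of all genes was not counted, so these counts do not set the members apart.

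Few member events were called between the edited lines and WT, but at EB8 and DIV7 the shares in the homozygous Puf60 lines exceeded the backgrounds. At EB8, 5 of 121 member events were called in Puf60_mEx5_HOM (background 0.796%) and 7 in Puf60_pEx5_HOM (background 2.44%). At DIV7, 1 of 143 was called in Puf60_mEx5_HOM (background 0.0978%) and 9 in Puf60_pEx5_HOM (background 1.55%). In Puf60_pEx5_HET and Rbm38KO 0 were called by limma at any stage, and 0 of 39 in any line at ESC. The backgrounds for Puf60_pEx5_HET and Rbm38KO were 0.0107% and 0.00357% at EB8, and 0.0188% and 0% at DIV7. At ESC the backgrounds were 0.00455% in Puf60_mEx5_HOM, 1.5% in Puf60_pEx5_HOM, 0.0137% in Puf60_pEx5_HET and 0% in Rbm38KO. At an unadjusted p under 0.05 the member counts were 18 and 14 at EB8 and 14 and 8 at DIV7 for Puf60_pEx5_HET and Rbm38KO. For Puf60_mEx5_HOM and Puf60_pEx5_HOM the counts were 29 and 34 at EB8 and 18 and 27 at DIV7. At ESC these unadjusted counts were 1 in Puf60_mEx5_HOM, 1 in Puf60_pEx5_HOM, 4 in Puf60_pEx5_HET and 1 in Rbm38KO. The share of all events at that threshold was not counted. When reads were not weighted, the counts of called member events were 0 and 1 at EB8 and 0 and 0 at DIV7 for Puf60_mEx5_HOM and Puf60_pEx5_HOM. These calls thus depend on the weighting. Without a filter on mean PSI they were 1 and 1 at EB8 and 0 and 0 at DIV7.

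The event called in Puf60_mEx5_HOM at DIV7 was the 60-nt exon of Nlgn3 whose sequence is given above. It had 40.3 and 38.8 in Puf60_mEx5_HOM, against 69.4 and 66.5 in WT (-28.4 points, adjusted p = 3.75e-04), from at least 321 reads in a library. The other lines had 75.5 and 77.1 in Puf60_pEx5_HOM, 73.9 and 69.98 in Puf60_pEx5_HET and 68.2 and 67.7 in Rbm38KO. Puf60_mEx5_HOM alone lay below WT. At EB8 the exon had 51.3 and 51.4 in Puf60_mEx5_HOM and 78.95 and 100.0 in Puf60_pEx5_HOM, against 67.1 and 68.2 in WT, with an adjusted p of 0.263 for Puf60_mEx5_HOM. The value of 100.0 rests on 16 reads. Nlgn3 is X-linked, and the Puf60_mEx5_HOM libraries are those with 0 reads in Y-linked genes, whose part was not tested. The call was kept on leaving out each of the 4 DIV7 libraries in turn. It was lost when reads were not weighted, and also without the filter on mean PSI.

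The Nrcam exons of 126 and 153 nt were called in Puf60_pEx5_HOM at both stages, which use different libraries. The 126-nt exon had 68.3 and 71.97 in Puf60_pEx5_HOM, against 47.4 and 50.5 in WT at DIV7 (21.2 points, adjusted p = 4.40e-04). At EB8 it had 19.8 and 18.4 in Puf60_pEx5_HOM, against 5.74 and 5.6 in WT (13.4 points, adjusted p = 0.00171). The 153-nt exon had 75.2 and 77.5 in Puf60_pEx5_HOM, against 56.7 and 59.1 in WT at DIV7 (18.4 points, adjusted p = 4.40e-04). At EB8 it had 24.4 and 26.6 in Puf60_pEx5_HOM, against 9.56 and 9.69 in WT (15.9 points, adjusted p = 6.56e-04). In Puf60_mEx5_HOM the pair lay on the other side of WT at DIV7, at 37 and 32.6 for the 126-nt exon and 48.4 and 42.5 for the 153-nt exon, without a call, with adjusted p of 0.104 and 0.144. Puf60_pEx5_HET, with 62.2 and 56.02 and 68.7 and 65.1, lay between Puf60_pEx5_HOM and WT.

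Among the other calls in Puf60_pEx5_HOM at EB8, the 162-nt exon of Chl1 had the largest difference of the 7. It had 66.3 and 64.3 in Puf60_pEx5_HOM, against 93.8 and 94.2 in WT (-28.7 points, adjusted p = 1.08e-05). The 30-nt exon of Nrcam had 29.9 and 29.7 in Puf60_pEx5_HOM, against 50.1 and 53.8 in WT (-22.2 points, adjusted p = 0.00118). The 801-nt exon of Ncam1 had 31.2 and 27.9 in Puf60_pEx5_HOM, against 49.5 and 48.2 in WT (-19.3 points, adjusted p = 0.00103). These 3 were lower in the line, and the 15-nt exon of Ncam1 was higher, with 59.3 and 62.95 in Puf60_pEx5_HOM, against 40.2 and 45.3 in WT (18.4 points, adjusted p = 0.0136). At DIV7 the adjusted p was 0.527 for the Chl1 exon, 0.601 for the Nrcam exon and 0.346 for the 801-nt exon, and the Chl1 exon had 94.7 and 98.2 in Puf60_pEx5_HOM, against 93.4 and 93.5 in WT. The VASE exon of Ncam1 was called at DIV7, with 51.5 and 43.8 in Puf60_pEx5_HOM, against 26.4 and 29.5 in WT (19.7 points, adjusted p = 0.00421), and at EB8 had 23.3 and 24.9 in Puf60_pEx5_HOM, against 18.98 and 22.1 in WT. Neighbouring Ptprd exons of 194, 118 and 582 nt were called lower at DIV7, the first with 24.1 and 19.5 in Puf60_pEx5_HOM, against 37.7 and 38.9 in WT.

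In Puf60_mEx5_HOM at EB8, 3 of the 5 calls lay in Ptprf. The 33-nt exon had 19.5 and 23.2 in Puf60_mEx5_HOM, against 8 and 9.6 in WT (12.5 points, adjusted p = 0.00324). The 27-nt exon had 29.9 and 31.2 in Puf60_mEx5_HOM, against 15.7 and 17.7 in WT, and the 579-nt exon 75.5 and 76.2 in Puf60_mEx5_HOM, against 88.7 and 88.6 in WT. All 3 exons were nearer in the line to the DIV7 values of WT than they were in WT at EB8. A 64-nt exon of Lrrtm4 had 42.6 and 43.1 in Puf60_mEx5_HOM, against 78.2 and 64.5 in WT with adjusted p = 0.0491 and 49 reads in its lowest library, and the 84-nt exon of Cadm1 35.1 and 32.1 in Puf60_mEx5_HOM, against 53.6 and 42.7 in WT with adjusted p = 0.0496. The count of 5 was 1 without EB8 WT replicate A, 2 without replicate A of Puf60_mEx5_HOM and 1 without its replicate B. The count of 9 in Puf60_pEx5_HOM at DIV7 was 4 without its replicate A and 3 without DIV7 WT replicate B. The neuron marker levels given for EB8 differ between these lines as well, and their part in the exon differences was not tested.

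**Figure D5:**
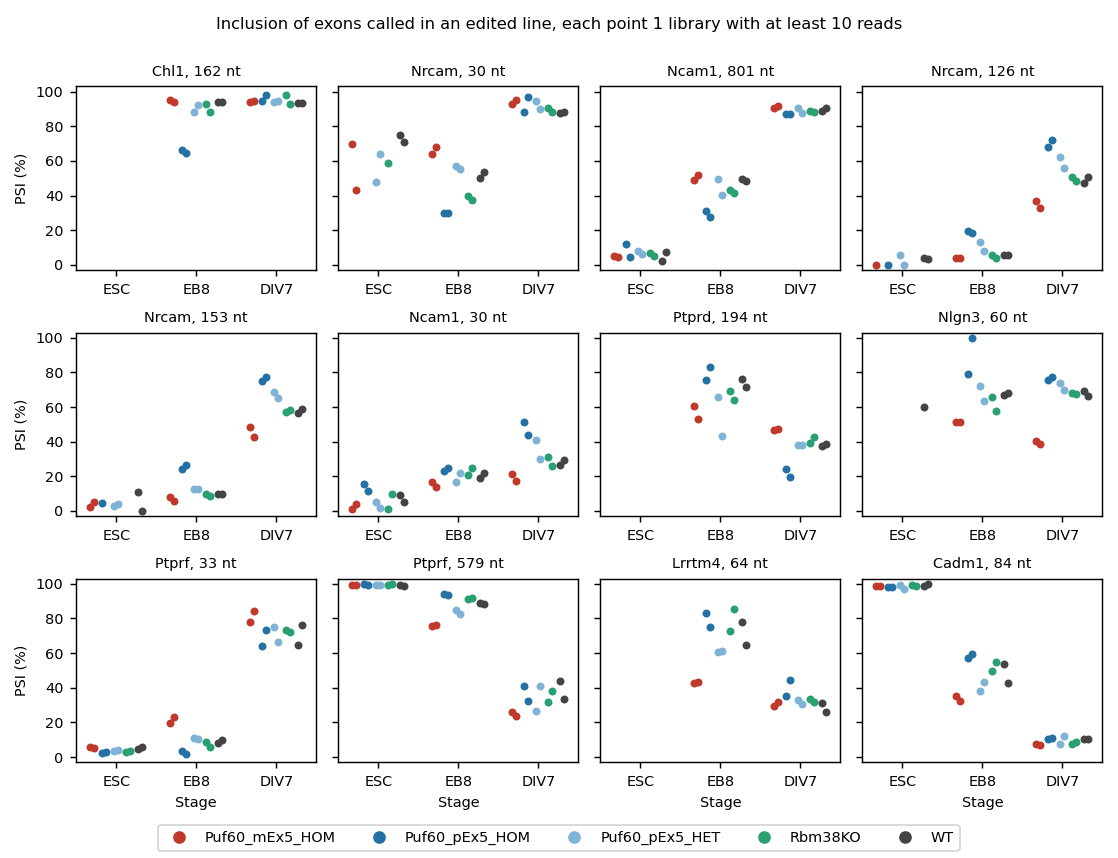
PSI of 12 exons called in an edited line at EB8 or DIV7, each point 1 library with at least 10 reads, by stage and line. The 60-nt exon of Nlgn3 in Puf60_mEx5_HOM (38.8 and 40.3 at DIV7, against 66.5 and 69.4 in WT) and the Nrcam 126-nt exon in Puf60_pEx5_HOM (68.3 and 71.97 at DIV7, against 47.4 and 50.5 in WT) stand apart from WT.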

How the data were processed

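PolyA RNA from 30 libraries in 15 groups (3 stages, 5 lines, 2 replicates each) was analysed. RPKM was deposited by the authors as 1 pooled value per group, so it carries no replicate error. The log2 fold changes and false discovery rate p-values of the authors' deposited table are named as such wherever they are printed. PSI was deposited by the authors as a percent per splicing event and library, with read numbers in a quality string. Per the submitters' processing notes, Salmon 0.14.1, edgeR and mm10 were used; the step that each served is not given in the sources used here.

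From the deposited read numbers, exon-exon junction reads were summed per gene, scaled by median of ratios to a common library size (CPM) and fitted as log2(CPM + 1) with limma 3.58.1 in R 4.3.3 over all 30 libraries, with trend and robust variance and Benjamini-Hochberg adjustment. Genes needed 1 CPM in 2 libraries. Because junction reads are not whole-gene counts, genes with few or no introns are measured poorly or not at all. Splicing was fitted with limma on log2 of inclusion over exclusion reads, each plus 1, weighted by read number, for events with 10 reads in every library and a mean PSI of 5 to 95. The thresholds were an adjusted p of 0.05 with a 2-fold change, or with 10 PSI points, and for the difference between steps the adjusted p alone. Intervals and read floors cover counting error only.

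Both procedures were run on simulated data with large planted changes at EB8 and no differences between stages. That setting is simpler than the data, and no result here rests on it. Sequences and annotation are from GENCODE M21 on mm10. The members and lists were chosen with earlier results of these data known. The genes named are, per WT step, the 6 largest rises and 4 largest falls among called members, per edited line and stage up to 4 called members, and likewise up to 10 events per WT step and 4 per line and stage; other members are summarised or given for their family. Alternatives tried were other scaling, pseudocount, filters, weights, limma voom, a replicate block, fitting only the stages compared and leaving out each library. A separate deposited table of alternative splicing comparisons was not used here. One exon of the members is not reported here by itself.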

Additional observations from a re-analysis of the deposited data

Results flagged for a closer look

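For 14 members the step between EB8 and DIV7 differed between an edited line and WT in limma's test of that difference, on the log2(CPM + 1) scale, given with its SE and with p adjusted over all genes tested. In Puf60_pEx5_HOM the step was larger than in WT for Lrrc4b by 1.58 ± 0.18 (adjusted p = 1.81e-05), Ncam2 by 1.58 ± 0.22 (adjusted p = 1.31e-04), Nlgn3 by 1.40 ± 0.21 (adjusted p = 2.55e-04), Cntnap2 by 1.36 ± 0.30 (adjusted p = 0.00562) and Cntn5 by 1.19 ± 0.19 (adjusted p = 3.87e-04). It was also larger for Cntnap4 by 1.12 ± 0.23 (adjusted p = 0.00314), Cadm2 by 1.08 ± 0.24 (adjusted p = 0.00673), Nrxn2 by 1.02 ± 0.22 (adjusted p = 0.00477) and Nlgn2 by 1.01 ± 0.24 (adjusted p = 0.0118). The smallest differences of that line were those of Cntn1 by 0.96 ± 0.21 (adjusted p = 0.00582), Cadm4 by 0.79 ± 0.20 (adjusted p = 0.0168), Lrrtm1 by 0.72 ± 0.21 (adjusted p = 0.0307) and Cbln1 by 0.65 ± 0.21 (adjusted p = 0.0472). In Puf60_mEx5_HOM the step was smaller than in WT for Cbln1 by -1.09 ± 0.21 (adjusted p = 0.00761), Lrrc4b by -0.99 ± 0.18 (adjusted p = 0.00545) and Cntn6 by -0.78 ± 0.18 (adjusted p = 0.0251). Lrrc4b and Cbln1 differed in both lines, in opposite directions. Both lines are compared with the same WT libraries, which are part of every value here. The EB8 libraries are also those of the EB8 comparison, so a larger or smaller step partly restates the level at EB8. For Cbln1 in Puf60_pEx5_HOM, the DIV7 libraries themselves lay below WT (13.9 and 15.1 against 23.3 and 21.4 CPM). With 2 libraries per group no single library could be tested as an outlier.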

How the results depend on the processing

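In expression, no called member changed direction under any alternative run. The direction of a splicing event is that of the deposited PSI, so only leaving out a library could change it, and there it did not. Members and events that dropped out of a run were not compared. In expression, the count of members was 0 in Puf60_pEx5_HOM at ESC and became 2 with a pseudocount of 0.25 CPM, 1 with limma voom and 5 at any size of change. In Puf60_mEx5_HOM at EB8 the count of 3 became 8, 10 and 28 in the same order. At any size the count of 8 in Puf60_pEx5_HOM at EB8 became 20, and the counts of 0 at DIV7 became 1 in Puf60_mEx5_HOM and 6 in Puf60_pEx5_HOM. The 3 smaller steps in Puf60_mEx5_HOM became 5 with scaling to total junction reads and 7 with limma voom. When only the libraries of the stages compared were fitted, 86 of the 89 expression calls of members were kept and 3 fell short. In splicing, a minimum of 20 reads gave 11 events for WT EB8 against ESC and 3 for Puf60_mEx5_HOM at EB8. Without weights the counts in Puf60_mEx5_HOM and Puf60_pEx5_HOM were 0 and 1 at EB8 and 0 and 0 at DIV7, and without a filter on mean PSI they were 1 and 1 at EB8 and 0 and 0 at DIV7. At any size, 30 events were called for WT EB8 against ESC and 11 for Puf60_pEx5_HOM at EB8. The cause of these shifts was not tested, except that a rule without a size threshold calls more by construction.

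Leaving out 1 library at a time gave 28 to 29 members for WT EB8 against ESC, 32 to 37 for WT DIV7 against EB8, 0 to 1 for Puf60_pEx5_HOM at ESC, 2 to 6 for Puf60_mEx5_HOM at EB8 and 5 to 11 for Puf60_pEx5_HOM at EB8. For the difference between steps it gave 2 to 3 in Puf60_mEx5_HOM, 8 to 16 in Puf60_pEx5_HOM and 0 to 3 in Puf60_pEx5_HET. For splicing it gave 15 to 17 events for WT EB8 against ESC, 45 to 54 for WT DIV7 against EB8, 1 to 4 for Puf60_mEx5_HOM and 5 to 9 for Puf60_pEx5_HOM at EB8, and 1 to 1 and 3 to 6 for those lines at DIV7. Of the named values, 382 of 420 in expression and 297 of 368 in splicing kept their side of the threshold.

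The replicate letters A and B recur in every group, but the labels do not say that they mark a shared culture or day. The correlation of the deviations from the group means between same-lettered libraries ran from -0.210 to 0.624. With the letter as a replicate block, the count of smaller steps in Puf60_mEx5_HOM was 5 and that of events in Puf60_mEx5_HOM at EB8 was 3, and the other counts stayed within 1.5 times.

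Precision was limited by 2 libraries per group and, at ESC, by few reads, since 9 members had none in WT there.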
